A study of Mus musculus with 29 samples.

Results

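The collagen genes of the mouse hippocampus are described here, taken as the protein-coding genes whose symbol is Col, a number, the letter a and a number. The expression table held 44 such genes among 31002 in all, 21930 of them protein-coding. Hippocampal RNA of 29 mice was sequenced, 1 library per mouse, in 4 groups. The groups were 7 wildtype (WT, strain C57BL/6N in the labels) mice at 2 months, 8 WT mice at 22 months, 8 homozygous hAβ-KI mice (hAbKI in the labels, strain C57BL/6NJ) at 2 months and 6 hAβ-KI mice at 22 months. The hAβ-KI allele changes 3 amino acids of the mouse Aβ sequence inside App to the human ones, carries loxP sites around an exon of App, and was made in embryonic stem cells. Gene-level values cannot show these codon changes, so the genotype labels could not be checked. Each group held males and females, 18 and 11 in all. The substrain named in the labels differed with the genotype. The S numbers that end the sample titles ran in blocks that matched the groups, and what they mark is not given in the sources used here. Neither the substrain nor these numbers can be told apart from the groups. Values are TPM (transcripts scaled to a fixed total per library, corrected for transcript length), which hold no read counts, so the depth behind each value is unknown here. The hippocampal neuron markers Prox1, Fibcd1, Wfs1 and Neurod6 were present in every mouse, with sums of 185 to 332 TPM.

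Collagens are secreted or membrane-bound proteins whose chains wind around each other in a triple helix, a shape that needs glycine at regular spacing, the first residue of each triplet. Fibrillar collagens (types I, II, III, V, XI, XXIV and XXVII) have a long unbroken helix and assemble into banded fibrils, as in meninges and the walls of larger vessels. Type IV collagen has a helix with many interruptions and forms the sheet-like network of basement membranes, which in brain surround every capillary and underlie the choroid plexus epithelium and the pia. Type XVIII and type XV (multiplexins) lie at the edge of basement membranes, type VI forms beaded filaments around vessels and nerves, and type VIII forms a short-chain network best known from the cornea and vessel wall. FACIT collagens, such as type IX, attach to the surface of fibrils, and transmembrane collagens such as type XXV sit in the membranes of neurons and other cells.

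The difference in the helix can be read in the genes. A pair of 30-codon stretches shows it, printed with the glycine codons (GGN, in the reading frame) in capitals and the other codons in lower case. Both were read from GENCODE M21 transcripts, from the longest reading frame that starts with ATG, and codons are counted from that ATG. The stretch of Col1a1, codons 168 to 197, opens its longest run of glycine triplets and has 10 glycine codons at exact spacing. The stretch of Col4a1, codons 1338 to 1367, crosses the end of its longest run, where the spacing is lost and then resumes, and has 9.
Col1a1: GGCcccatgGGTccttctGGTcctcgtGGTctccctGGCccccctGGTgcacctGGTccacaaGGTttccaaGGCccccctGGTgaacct
Col4a1: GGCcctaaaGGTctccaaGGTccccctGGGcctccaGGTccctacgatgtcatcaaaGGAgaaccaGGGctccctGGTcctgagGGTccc

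Over whole coding sequences the longest unbroken run was 338 triplets in Col1a1, 339 in Col1a2 and 344 in Col3a1. All 11 fibrillar genes had 2 or 3 runs of at least 5 triplets, and the shortest of their longest runs, in Col24a1, was 216. The 6 type IV genes had longest runs of 39 to 66 triplets, with 22 to 27 separate runs each. The beaded filament genes Col6a1 and Col6a2 both had a longest run of 87. The share of codons in runs was not lower in type IV, at 78.4% in Col4a1 against 73.3% in Col1a1. These are features of the reference sequence, and they were not used to choose or class the genes.

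Position in the genome set some collagen genes side by side. On GRCm38, the build the authors used, Col4a1 (chr8:11198423-11312826, minus strand) and Col4a2 (chr8:11312805-11449287, plus strand) start head to head, and their annotated spans overlap at the starts. Their promoter windows in RefSeq (GRCm38.p6, from 250 bases before to 50 bases after each start) share 78 bases. Col6a1 (chr10:76708792-76726168) and Col6a2 (chr10:76595762-76623630) lie close together on the same strand, as do Col3a1 and Col5a2 on opposite strands of chromosome 1. RefSeq promoters were found for 35 of the 44 genes. They are shown for Col4a1 and Col4a2, which face each other, for Col1a2, the most abundant fibrillar gene, and for Col8a1 and Col8a2, whose levels moved together across mice. Capitals mark matches on either strand to CCAAT, to the GC box GGGCGG and to the TATA box TATAAA, and overlapping GC box matches run together.
Col4a1 (GRCm38.p6, chr8:11312777-11313076, minus strand): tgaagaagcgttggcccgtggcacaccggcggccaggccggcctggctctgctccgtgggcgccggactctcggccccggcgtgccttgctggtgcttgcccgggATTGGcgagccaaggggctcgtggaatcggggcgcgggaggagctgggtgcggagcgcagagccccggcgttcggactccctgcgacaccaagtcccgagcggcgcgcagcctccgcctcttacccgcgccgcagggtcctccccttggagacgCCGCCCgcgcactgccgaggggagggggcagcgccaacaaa
Col4a2 (GRCm38.p6, chr8:11312555-11312854, plus strand): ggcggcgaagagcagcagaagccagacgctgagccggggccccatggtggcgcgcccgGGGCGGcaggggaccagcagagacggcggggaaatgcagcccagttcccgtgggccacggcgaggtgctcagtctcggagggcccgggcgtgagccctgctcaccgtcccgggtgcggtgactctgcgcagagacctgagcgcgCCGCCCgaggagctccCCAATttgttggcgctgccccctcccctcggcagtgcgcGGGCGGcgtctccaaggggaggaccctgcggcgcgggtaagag
Col1a2 (GRCm38.p6, chr6:4505368-4505667, plus strand): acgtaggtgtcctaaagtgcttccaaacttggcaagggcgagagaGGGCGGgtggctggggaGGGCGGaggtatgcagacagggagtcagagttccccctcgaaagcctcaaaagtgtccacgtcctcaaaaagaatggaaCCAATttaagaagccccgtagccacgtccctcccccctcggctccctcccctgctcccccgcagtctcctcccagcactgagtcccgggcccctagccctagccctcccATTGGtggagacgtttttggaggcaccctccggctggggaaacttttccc
Col8a1 (GRCm38.p6, chr16:57754688-57754987, minus strand): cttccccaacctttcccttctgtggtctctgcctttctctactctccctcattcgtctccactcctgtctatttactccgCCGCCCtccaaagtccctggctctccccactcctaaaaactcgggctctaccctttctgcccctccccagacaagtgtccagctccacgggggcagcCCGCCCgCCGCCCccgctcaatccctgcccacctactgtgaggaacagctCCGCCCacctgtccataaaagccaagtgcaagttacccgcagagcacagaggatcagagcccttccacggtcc
Col8a2 (GRCm38.p6, chr4:126286544-126286843, plus strand): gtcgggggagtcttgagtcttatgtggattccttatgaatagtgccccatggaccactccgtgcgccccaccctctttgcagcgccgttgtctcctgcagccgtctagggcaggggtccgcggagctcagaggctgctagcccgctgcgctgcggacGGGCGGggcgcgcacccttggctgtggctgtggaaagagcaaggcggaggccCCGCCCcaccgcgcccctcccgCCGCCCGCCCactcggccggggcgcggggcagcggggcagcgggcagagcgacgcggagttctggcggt

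The GC box occurred in 60.5% of the 38 collagen promoters and in 35.7% of the 32851 promoters of the same length. CCAAT occurred in 34.2% against 37.4%, and TATAAA in 13.2% against 13.6%. The collagen promoters were also richer in G and C, with a median of 59.9% against 52.7%. The promoters of Col8a1 and Col8a2 held 4 GC box matches each and no CCAAT, whereas Col1a2 held 2 of each. These matches are descriptions of the letters and not of bound factors.

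The collagen genes were low in hippocampus, and the sum of all 44 averaged 104 TPM ± 27.8 (SD, n = 29). A filter of at least 1 TPM in at least 2 mice kept 15554 genes, among them 29 of the 44 collagen genes. The other 15 passed in none or 1 of the mice, and no collagen gene was at 0 TPM in every mouse. Of the 44, 20 had a mean of 1 TPM or more. Fibrillar genes made up 17.3% of the summed collagen TPM on average and type IV genes 9.34%, while the FACIT class, through Col9a3, made up 41.9%.

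**Figure D1:**
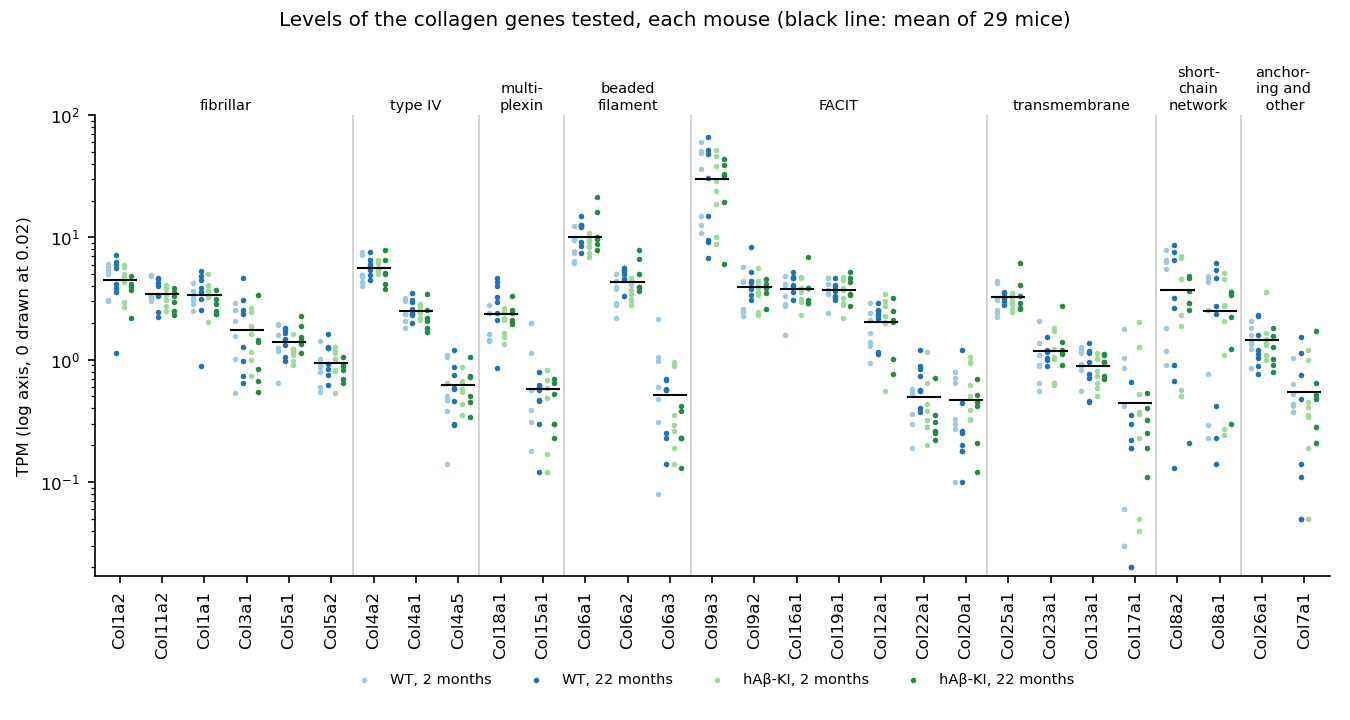
TPM on a log axis for each of the 29 collagen genes tested, grouped by class, with 1 point a mouse, coloured by group, and a black line at the mean of the 29 mice. The highest mouse exceeded the lowest 10.9-fold in Col9a3, 44.4-fold in Col8a1 and 67.0-fold in Col8a2 but 2.06-fold in Col4a1 and 2.08-fold in Col4a2, and the ranges of the 4 groups overlap in each gene.

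The most abundant member was Col9a3, the α3 chain of the fibril-associated type IX collagen, with a mean of 30.1 TPM ± 18.2 (SD, n = 29). Its partners in the type IX molecule were far lower, with Col9a2 at 3.91 TPM and Col9a1 at 0.279 TPM, below the filter. Col9a3 exceeded Col9a2 in all 29 mice, by a median ratio of 7.95 and a range of 1.55 to 26.6. Of the exon bases of Col9a3, 6.07% lie within exons of Tcfl5, and the library type does not mark the strand, so that part of its reads could belong to that gene. In second place came Col6a1, the α1 chain of the beaded filament collagen VI, at 10.1 TPM ± 3.3, with its partner Col6a2 at 4.30 TPM ± 1.23. The third chain of the common type VI molecule, Col6a3, averaged 0.517 TPM.

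Among the type IV genes, Col4a2 (5.6 TPM ± 1.1, SD, n = 29) and Col4a1 (2.5 TPM ± 0.47) stood far above the rest. These encode the chains of the most widespread type IV network, in which α1 chains outnumber α2 chains. At the transcript level Col4a2 was above Col4a1 in all 29 mice, by a median ratio of 2.27 and a range of 1.80 to 2.84. Col4a5 averaged 0.616 TPM and reached 1 TPM in 4 mice. Col4a3, Col4a4 and Col4a6, chains best known from kidney and other specialised basement membranes, averaged 0.334, 0.199 and 0.138 TPM and were below the filter. Between genes, TPM are corrected for transcript length, but the isoforms assumed in the quantification also enter such a ratio.

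Among the fibrillar genes, Col1a2 (4.51 TPM ± 1.38), Col11a2 (3.45 TPM ± 0.741) and Col1a1 (3.37 TPM ± 0.946) led. Col1a1 and Col1a2 encode both kinds of chain of type I collagen, the main fibril of meninges and vessel walls, and Col1a2 was above Col1a1 in 26 of 29 mice with a median ratio of 1.36. Col3a1, which forms thin fibrils with type I, averaged 1.76 TPM, and Col5a1 and Col5a2, which start and limit fibrils, averaged 1.39 and 0.946 TPM. Col11a1, Col2a1, Col27a1, Col5a3 and Col24a1 averaged 0.566, 0.481, 0.477, 0.386 and 0.121 TPM and were below the filter. Col2a1 is the main fibril of cartilage.

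The other members among the 10 highest were Col16a1 (3.8 TPM ± 1.03) and Col19a1 (3.70 TPM ± 0.760), both fibril-associated types, and Col8a2 (3.71 TPM ± 2.65). Type XIX collagen is known in hippocampus from interneurons, where it takes part in forming synapses. Col25a1, the transmembrane collagen whose cleaved form binds Aβ and collects in amyloid plaques, averaged 3.24 TPM ± 0.767.

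The fibrillar sum exceeded the type IV sum in each group. In WT mice the 11 fibrillar genes summed to 18 TPM ± 3.55 (SD, n = 7) at 2 months and 18.9 TPM ± 5.09 (n = 8) at 22 months. In hAβ-KI mice they summed to 16.9 TPM ± 1.99 (n = 8) and 15.6 TPM ± 3.12 (n = 6). The 6 type IV genes summed to 9.19 TPM ± 2.59 and 9.73 TPM ± 1.98 in WT mice and to 9.44 TPM ± 0.638 and 9.07 TPM ± 2.05 in the knock-in groups, the younger mice first in each case.

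The ratio of both sums was 1.85 over all 29 mice (the geometric mean) and ranged from 1.37 to 2.71, so that fibrillar transcripts were the larger pool in every mouse. On the log2 scale the lowest, median and highest ratios were 0.65, 1.02 and 1.34 in WT mice at 2 months and 0.59, 0.88 and 1.44 at 22 months. Among the knock-in mice they were 0.54, 0.88 and 1.00 at 2 months and 0.46, 0.82 and 1.04 at 22 months. The ranges of all 4 groups overlapped. The mean log2 ratio of hAβ-KI mice minus that of WT mice was -0.15 at 2 months (pooled SD 0.23) and -0.13 at 22 months (pooled SD 0.24). Between ages it differed by -0.06 in WT mice (pooled SD 0.27) and by -0.04 in hAβ-KI mice (pooled SD 0.18). Each of these differences was smaller than the spread between mice of a group, and no test was made on a ratio over chosen genes.

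**Figure D2:**
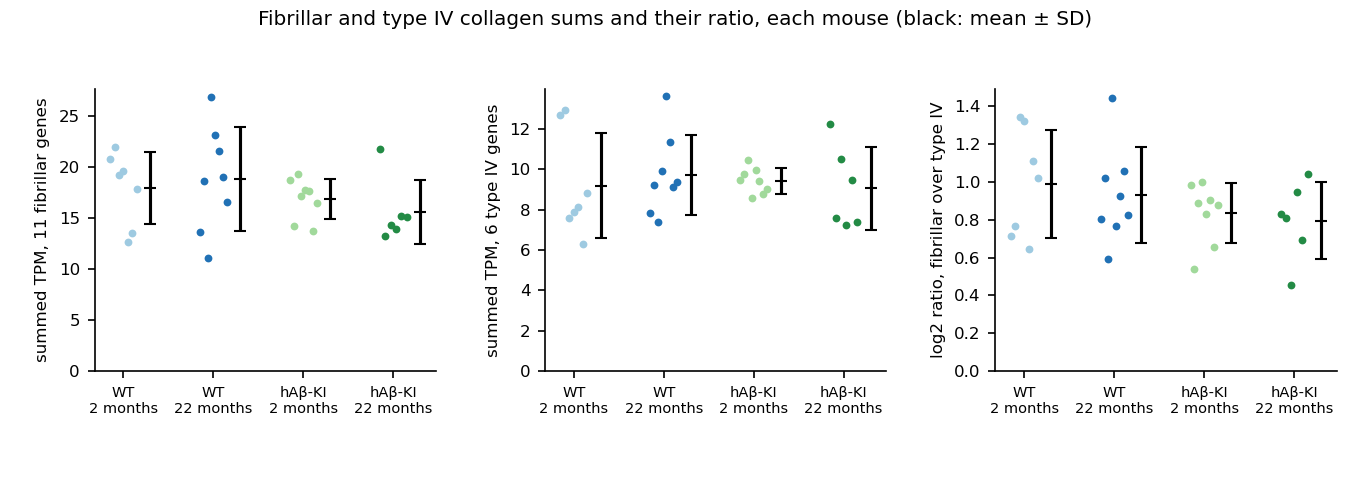
Summed TPM of the 11 fibrillar genes (left) and the 6 type IV genes (middle) and the log2 of their ratio (right), with 1 point a mouse and the mean ± SD of each group in black. Groups overlap in all 3 panels, and every mouse has a log2 ratio above 0, from 0.46 to 1.44.

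Genotype was compared at each age with limma on log2(TPM + 1), in a single model of the 4 groups. A gene was called at a Benjamini-Hochberg FDR under 0.1 together with an unadjusted p under 0.05. No collagen gene was called at 2 months or at 22 months, 0 of 29 in each. Across all genes tested, 0.0386% were called at 2 months and 0.495% at 22 months, so that 0 of 29 lies near the background. At an unadjusted p under 0.05 there was 1 of 29 at each age, where 6.69% and 10.2% of all genes reached that level. The median log2 difference over the 29 genes was 0.01 at 2 months and -0.04 at 22 months, beside -0.03 and -0.01 over all genes.

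The gene with the smallest p at 22 months was Col22a1, a fibril-associated collagen of tissue junctions such as those of muscle and tendon. In WT mice at 22 months its lowest, median and highest levels were 0.37, 0.655 and 1.19 TPM, and in hAβ-KI mice they were 0.22, 0.285 and 0.71 TPM. The ranges overlapped through hAβ-KI replicate 6, which lay above the WT median, while the next hAβ-KI mouse, at 0.35 TPM, lay below every WT mouse. The log2 difference was -0.32 (SE 0.12, limma adjusted p = 0.332). At 2 months it was Col15a1, a multiplexin of vessel basement membranes, with 0.18, 0.56 and 2.01 TPM in WT mice and 0.12, 0.49 and 0.82 TPM in hAβ-KI mice. The ranges overlapped, and the log2 difference was -0.36 (SE 0.17, limma adjusted p = 0.740). Neither gene is among the 10 most abundant members, and both are named because their p was smallest. Both genes averaged under 1 TPM, a range in which the added 1 shrinks differences.

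Fibrillar and type IV genes gave no call with genotype either. At 22 months, hAβ-KI means were below WT means in 5 of the 6 fibrillar genes tested and in 2 of the 3 type IV genes, with median log2 differences of -0.17 and -0.11. Col1a1 ranged from 0.89 over 3.69 to 5.30 TPM (lowest, median, highest) in WT mice and from 2.35 over 2.68 to 3.73 TPM in hAβ-KI mice. The hAβ-KI mice at 2.35, 2.37 and 2.48 TPM lay inside the WT range only through WT replicate 3, since the next lowest WT mouse had 2.57 TPM. Those at 2.88, 3.12 and 3.73 TPM lay inside it with or without that mouse. The log2 difference was -0.19 (95% interval -0.56 to 0.18). For Col1a2 it was -0.18 (-0.63 to 0.27) and for Col3a1 it was -0.32 (-0.87 to 0.23). The type IV genes had narrower intervals, with a difference of -0.16 for Col4a1 (-0.38 to 0.06) and of -0.11 for Col4a2 (-0.37 to 0.16). Each interval held 0. Over the same comparison the 7 mural markers tested had a median log2 difference of -0.21, with Pdgfrb at -0.31 (limma adjusted p = 0.129) and Tagln at -0.64 (limma adjusted p = 0.208). Acta2, Rgs5 and Vtn were at -0.33, -0.16 and -0.10, and Kcnj8 was at 0.09. Of the 7, 0 were called and 2 had an unadjusted p under 0.05, beside 0.495% and 10.2% of all genes. The summed TPM of all 8 mural markers listed ran from 127 to 256 in WT and from 141 to 210 in hAβ-KI mice at 22 months, and their part in the collagen values was not tested.

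Leaving out 1 mouse moved several of these values by over 1.5 times, and none was called. Without WT replicate 3 at 22 months, in which Col1a1 was 0.89 TPM and Col1a2 1.13 TPM, the log2 differences between genotypes at 22 months were -0.36 for Col1a1 and -0.37 for Col1a2. Without hAβ-KI replicate 2 at 22 months that of Col1a2 was -0.07, and without hAβ-KI replicate 1 that of Col3a1 was -0.51 and that of Col4a2 was -0.21. Over each mouse of the 2 groups left out in turn, the difference stayed below 0 for all 5 genes.

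Col25a1 is described because its product binds Aβ, the peptide that the allele alters, and it was chosen with its values known. At 22 months its lowest, median and highest levels were 2.80, 3.255 and 3.59 TPM in WT mice and 2.61, 3.11 and 6.15 TPM in hAβ-KI mice. The genotypes overlapped, with 2 of the 6 hAβ-KI mice above and 2 below every WT mouse, and the highest was hAβ-KI replicate 2. The log2 difference was 0.08 (95% interval -0.18 to 0.34, limma adjusted p = 0.884), and without that mouse it was -0.05. At 2 months the levels were 2.22, 3.09 and 4.42 TPM in WT mice and 2.45, 2.975 and 3.52 TPM in hAβ-KI mice.

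**Figure D3:**
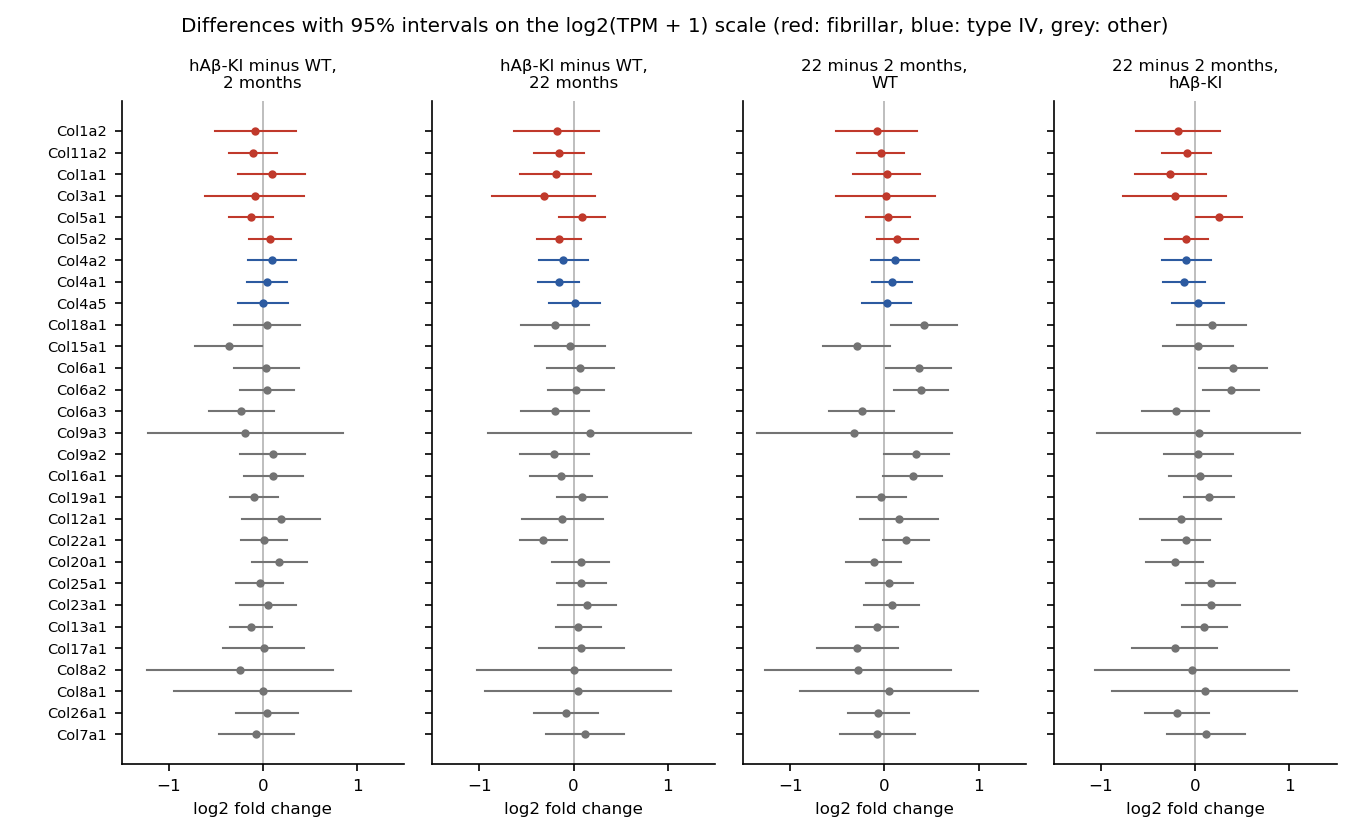
Log2 differences with 95% intervals on the log2(TPM + 1) scale for the 29 collagen genes tested, from limma, for genotype at each age and for age in each genotype. Fibrillar genes are red, type IV genes blue and other classes grey. No gene was called in any panel, and the widest intervals belong to Col9a3, Col8a2 and Col8a1.

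Age was compared within each genotype in the same model. Again no collagen gene was called, 0 of 29 in WT and 0 of 29 in hAβ-KI mice, where 5.0% and 9.18% of all genes were called. At an unadjusted p under 0.05 there were 3 of 29 in each genotype, beside 16.2% and 19.9% of all genes. The median log2 difference over the 29 genes came to 0.02 for WT and 0.03 for hAβ-KI mice, beside -0.03 and -0.00 over all genes. The count of 0 lies below those shares, a difference that was not tested. The interaction of genotype and age also gave 0 of 29 calls, with 0 of 29 at an unadjusted p under 0.05 and 0.00643% of all genes called.

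The gene nearest the threshold with age was Col6a2 in both genotypes, and its partner chain Col6a1 also had an unadjusted p under 0.05 in both. Col6a2 had lowest, median and highest levels of 2.19, 3.77 and 4.99 TPM in WT mice at 2 months and 3.29, 5.16 and 5.67 TPM at 22 months. In hAβ-KI mice they were 2.81, 3.57 and 4.62 TPM at 2 months and 3.68, 4.47 and 7.82 TPM at 22 months. The older mice lay higher with overlap in both genotypes, with a log2 difference of 0.39 in WT (SE 0.14, limma adjusted p = 0.135) and 0.38 in hAβ-KI mice (SE 0.15, limma adjusted p = 0.132).

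Col6a1 gave 6.18, 7.70 and 12.5 TPM in WT mice at 2 months and 7.41, 12.3 and 14.9 TPM at 22 months. In hAβ-KI mice it gave 6.89, 8.43 and 10.85 TPM at 2 months and 7.96, 9.88 and 21.5 TPM at 22 months. The older groups again lay higher with overlap, with log2 differences of 0.36 (SE 0.17, limma adjusted p = 0.275) and 0.40 (SE 0.18, limma adjusted p = 0.190). Col6a3, the remaining type VI chain tested, had log2 differences of -0.24 in WT (limma adjusted p = 0.514) and -0.21 in hAβ-KI mice (limma adjusted p = 0.549). The 7 mural markers tested had a median log2 difference with age of 0.27 in the WT groups and -0.06 in the knock-in groups, and the 10 fibroblast markers one of 0.32 and 0.19. The mural marker Vtn was called in both genotypes, at 0.36 (limma adjusted p = 0.0264) and 0.29 (limma adjusted p = 0.0637). It was 1 of 7 each time, beside 5.0% and 9.18% of all genes. In hAβ-KI mice Pdgfrb, Tagln, Rgs5 and Kcnj8 were lower with age, at -0.20, -0.12, -0.10 and -0.06. Acta2 and Myh11 were both at 0.04 there. Pdgfrb was at 0.19 in WT mice, and none of the mural markers other than Vtn was called in either genotype. The part of these markers in the type VI values was not tested.

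The value in hAβ-KI mice leaned on replicate 2 at 22 months, which had the highest Col6a1 (21.5 TPM) and Col6a2 (7.82 TPM) of all 29 mice. Without it the log2 difference with age was 0.23 for Col6a1 and 0.26 for Col6a2. That library also stood apart in its cell type markers, with an oligodendrocyte marker sum of 2145 TPM where every other mouse had 3149 TPM or more, and a hippocampal neuron marker sum of 185 TPM where the next lowest mouse had 253 TPM. Their part in the collagen values was not tested. In WT mice, Col6a2 passed the threshold when either of a pair of mice was left out, with a log2 difference of 0.46 without replicate 1 at 2 months (limma adjusted p = 0.0901) and 0.46 without replicate 3 at 22 months (limma adjusted p = 0.0804).

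Col18a1, the multiplexin from which endostatin is cut, came next in WT mice. Its lowest, median and highest levels were 1.43, 1.61 and 2.79 TPM at 2 months and 0.85, 3.10 and 4.62 TPM at 22 months. At 22 months replicate 3 lay below every mouse of 2 months and the others overlapped with or lay above those, with a log2 difference of 0.42 (SE 0.17, limma adjusted p = 0.205). Without replicate 3 the difference was 0.57 and was called (limma adjusted p = 0.0267). In hAβ-KI mice the levels were 1.35, 2.15 and 2.64 TPM at 2 months and 1.97, 2.26 and 3.31 TPM at 22 months, with a log2 difference of 0.17 (SE 0.18, limma adjusted p = 0.642).

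No fibrillar or type IV gene was called with age. In WT mice the median log2 difference was 0.02 over the 6 fibrillar genes and 0.08 over the 3 type IV genes, and in hAβ-KI mice it was -0.14 and -0.09. Col4a2 differed by 0.11 (95% interval -0.14 to 0.36) in WT and by -0.09 (-0.36 to 0.17) in hAβ-KI mice. Col1a1 differed by -0.26 (-0.64 to 0.11) in hAβ-KI mice. Col5a1 was the fibrillar gene nearest the threshold, with 0.91, 1.175 and 1.61 TPM in hAβ-KI mice at 2 months and 1.14, 1.485 and 2.29 TPM at 22 months. The older mice lay higher with overlap, with a log2 difference of 0.25 (SE 0.12, limma adjusted p = 0.232).

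A few collagen genes varied far more between mice of the same group than most genes did. The residual SD of log2(TPM + 1) around the group means was 1.05 for Col9a3, 1.00 for Col8a2 and 0.96 for Col8a1, where the median of all genes tested was 0.19. Between 99.4% and 99.5% of all genes tested had a smaller SD than these 3. Among the fibrillar genes the largest SDs were 0.53 for Col3a1, 0.43 for Col1a2 and 0.35 for Col1a1. Col4a1 (0.19) lay near the median of all genes, with 52.1% of them at a smaller SD, and for Col4a2 (0.24) that share was 68.3%. Each of the 29 collagen genes tested had an SD above the median of all genes, and Col4a1 had the smallest. The 95% intervals of a difference were accordingly wide for Col8a1 and Col8a2, with a median half-width of 0.97 to 1.01 in the 4 comparisons, where the median over the 29 genes was 0.33 to 0.34.

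The 3 most variable genes followed the markers of the choroid plexus, the epithelium that makes cerebrospinal fluid and lies against the hippocampus. The 9 markers (Ttr, Kl, Folr1, Otx2, Aqp1, Enpp2, Clic6, Prlr and Kcne2), none of them a collagen, all passed the filter, and their summed TPM split the mice into separate sets. In 8 mice the sum was 110 to 270 TPM and in the other 21 mice it was 3033 to 18924 TPM. The 8 mice were spread over the groups, with 2 of 7 WT mice and 2 of 8 hAβ-KI mice at 2 months, and 3 of 8 WT mice and 1 of 6 hAβ-KI mice at 22 months. In bulk tissue, fewer cells of a type and less RNA per cell cannot be told apart.

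Col9a3 was between 6.09 and 12.6 TPM in the 8 mice and between 15.1 and 66.4 TPM in the 21 mice, without overlap. Col8a1 was between 0.14 and 0.42 TPM against 0.76 and 6.21 TPM, and Col8a2 between 0.13 and 1.18 TPM against 1.81 and 8.71 TPM, also without overlap. No other collagen gene among the 29 tested was free of overlap between these sets, and 0.354% of all genes tested were. Col1a2, with 1.13 to 4.46 TPM against 2.69 to 7.19 TPM, and Col4a2, with 4.03 to 6.56 TPM against 3.79 to 7.89 TPM, overlapped.

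Because the mice fell into these sets, the relation was taken within each of them. Here values were not centred on the group means, and the permutations moved mice across the groups of a set. Across the 21 mice, Pearson's r of log2(TPM + 1) with the mean standardized choroid plexus marker was 0.952 for Col8a2 (Spearman's rho 0.947), 0.938 for Col9a3 (rho 0.935) and 0.920 for Col8a1 (rho 0.891). For each of these r the permutation p was 1e-05, the smallest that 100000 permutations can give, with adjusted p = 0.000123 over 86 relations. Leaving out the 2 mice farthest from the median score gave r of 0.952, 0.912 and 0.869. Across the 8 mice, the same r was 0.441, 0.117 and 0.214, with exact permutation p of 0.268, 0.810 and 0.547. Col8a1 and Col8a2, whose chains form type VIII collagen, also followed each other across the 21 mice, with r of 0.913 and rho of 0.916 (permutation p 1e-05, adjusted p = 0.000123), and r was 0.874 without the 2 farthest mice. In the 8 mice their r was 0.236 and their rho -0.06 (exact permutation p 0.592 and 0.899).

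**Figure D4:**
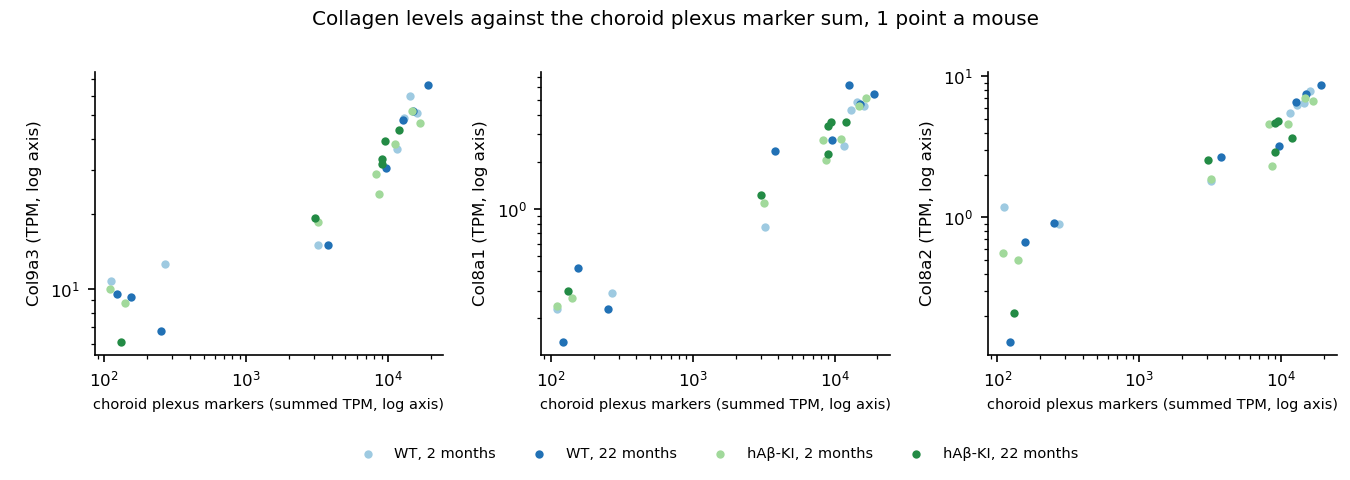
TPM of Col9a3, Col8a1 and Col8a2 against the summed TPM of 9 choroid plexus markers, both on log axes, with 1 point a mouse coloured by group. The 8 mice with sums of 110 to 270 TPM and the 21 mice with sums of 3033 to 18924 TPM form separate sets with mice of all groups in each, and the collagen levels of the sets do not overlap.

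With the choroid plexus score in the model, the residual SD fell from 1.05 to 0.29 for Col9a3, from 1.00 to 0.22 for Col8a2 and from 0.96 to 0.21 for Col8a1. It also fell for Col17a1 (0.42 to 0.32), Col1a2 (0.43 to 0.32) and Col18a1 (0.34 to 0.25), and was 0.24 without and 0.25 with the score for both Col4a2 and Col11a2. None of the 3 genes was called in any comparison with that score in the model.

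The type I collagen genes were compared with the markers of fibroblasts, the cells that make most fibrillar collagen in meninges and around vessels. The list had 10 markers without a collagen (Aldh1a2, Slc22a6, Ogn, Islr, Igf2, Slc13a3, Slc6a13, Dcn, Lum and Fmod), and all passed the filter. Their summed TPM ran from 103 to 249 in WT mice at 2 months, and from 80.0 to 298 at 22 months. The knock-in mice ranged from 113 to 239 TPM at the younger and from 118 to 239 TPM at the older age. These sums also differed between the 2 sets of mice above, at 136 TPM ± 45.2 in the 8 and 224 TPM ± 32.5 in the 21, so that both scores moved together. Dcn and Igf2 had the highest means of the 10 markers, at 60.7 and 60.0 TPM, and weighed most in the sums. Igf2 ran from 12.2 to 106 TPM over the mice. How far each marker is confined to fibroblasts in this tissue was not tested.

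Centred on the group means, Col1a2 had r of 0.914 and rho of 0.839 with the fibroblast score over the 29 mice (permutation p 1e-05 for both, adjusted p = 8.6e-05 and 0.000143). Leaving out the 2 mice farthest from the median score gave 0.854. Within the 21 mice high in choroid plexus markers r was 0.456 and rho 0.30 (permutation p 0.0368 and 0.187, adjusted p = 0.132 and 0.389), and in the 8 mice r was 0.842 (exact permutation p 0.00556, adjusted p = 0.239). Values within the 21 and within the 8 were not centred on the group means. Differences between ages and genotypes enter them, and they are not a like measure to that over the 29 mice. Col1a1 had r of 0.738 over the 29 mice and 0.224 within the 21. Over the 29 mice Col1a2 also followed the mural score (r 0.767, rho 0.618, adjusted p = 0.00043 and 0.00356), the choroid plexus score (r 0.692) and the endothelium score (r 0.627). Within the 21 mice the r with the mural score was 0.487 for Col1a2 and 0.468 for Col1a1, above those with the fibroblast score, and neither passed after adjustment (adjusted p = 0.113 and 0.130). The differences between these correlations were not tested. Without that centring, the relation of type I collagen to fibroblast markers did not pass the adjusted p of 0.05 within the 21 mice. With the fibroblast score in the model, the residual SD of Col1a2 fell from 0.43 to 0.18 and that of Col1a1 from 0.35 to 0.24.

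With that score in the model, 3 of the 4 age differences of the type I genes were called. Of the 15554 genes tested, 856 were called in that fit with age in WT and 1710 in hAβ-KI mice. Without the score, Col1a2 had log2 differences with age of -0.08 in WT (limma adjusted p = 0.894) and -0.18 in hAβ-KI mice (limma adjusted p = 0.705). With it they were -0.40 in WT (SE 0.0986, limma adjusted p = 0.0251) and -0.38 in hAβ-KI mice (SE 0.0999, limma adjusted p = 0.0202). Col1a1 was called in hAβ-KI mice at -0.40 (SE 0.132, limma adjusted p = 0.0667) and not in WT mice, at -0.19 (SE 0.13, limma adjusted p = 0.470). None of the 3 was called in any other alternative, and that of Col1a2 in WT mice ran up to 0.11, without replicate 3 at 22 months. The fibroblast markers had positive median log2 differences with age, 0.32 in WT and 0.19 in hAβ-KI mice, with 0 of 10 called in each by limma, where 5.0% and 9.18% of all genes were. At an unadjusted p under 0.05 there were 1 and 3 of 10, beside 16.2% and 19.9% of all genes. Their part in these values was not tested.

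Col4a1 followed the markers of mural cells, the pericytes and smooth muscle cells of vessels. Over the 29 mice, centred on the group means, Col4a1 had r of 0.832 and rho of 0.785 with a score of the 7 mural markers past the filter (Myh11, Pdgfrb, Tagln, Kcnj8, Acta2, Vtn and Rgs5) (permutation p 1e-05 and 2e-05, adjusted p = 8.6e-05 and 0.000215), and 0.813 without the 2 farthest mice. Without centring on the group means, its r was 0.780 within the 21 mice (permutation p 2e-05, adjusted p = 0.000215) and 0.839 within the 8 (exact permutation p 0.0149), where it did not pass after adjustment (adjusted p = 0.279). For Col4a2 the r was 0.574 and the rho 0.428 over the 29 mice (permutation p 0.00426 and 0.0358, adjusted p = 0.0122 and 0.077). The residual SD of Col4a1 fell from 0.19 to 0.11 with the mural score in the model. Over the 29 mice the r of Col4a1 was 0.585 with the endothelium score (rho 0.492), 0.571 with the fibroblast score (rho 0.583) and 0.47 with the choroid plexus score (rho 0.459). The differences between these correlations were not tested.

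Partner chains of the same collagen tended to move together from mouse to mouse. Centred on the group means, r over the 29 mice was 0.823 for Col1a1 with Col1a2 (rho 0.725), 0.812 for Col4a1 with Col4a2 (rho 0.733) and 0.773 for Col6a1 with Col6a2 (rho 0.722). Their permutation p were 3e-05, 1e-05 and 2e-05, with adjusted p = 0.000215, 8.6e-05 and 0.000156, and r without the 2 farthest mice was 0.741, 0.744 and 0.708. Col5a1 with Col5a2 (r 0.324, rho 0.261, adjusted p = 0.216) and Col9a2 with Col9a3 (r 0.085, rho 0.028, adjusted p = 0.804) did not pass. The type IV pair and the type VI pair lie close together in the genome, and the type I pair lies on different chromosomes, 11 and 6. The family of 86 relations held 6 pairs of chains, type VIII among them, and 20 collagen genes against 4 marker scores (fibroblast, mural, endothelium and choroid plexus), and 34 passed an adjusted p of 0.05 for both measures.

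Within the 21 mice high in choroid plexus markers, without centring on the group means, Col6a2 followed fibroblast markers with r of 0.786 and rho of 0.80 (permutation p 5e-05 and 6e-05, adjusted p = 0.00043 and 0.000645), and r was 0.827 without the 2 farthest mice. Differences between ages and genotypes thus enter the values within the 21 and within the 8 mice. With mural markers its r within the 21 was 0.727 and its rho 0.757 (permutation p 0.00013 and 0.00011, adjusted p = 0.00102 and 0.00105), and with endothelium markers the r was 0.551. In the 8 mice its r with fibroblast markers was 0.238 (exact permutation p 0.577), and over all 29 mice, centred on the group means, it was 0.32, with rho of 0.462 (permutation p 0.119 and 0.0185, adjusted p = 0.222 and 0.043). Those 8 include hAβ-KI replicate 2 at 22 months. Col18a1 followed the fibroblast score over all 29 mice with r of 0.776 and rho of 0.776. Their permutation p were 1e-05 and 2e-05 (adjusted p = 8.6e-05 and 0.000215). Within the 21 its r with that score was 0.809 (permutation p 1e-05, adjusted p = 0.000123). Over the 29 mice Col18a1 also followed the choroid plexus score (r 0.71, rho 0.729) and the mural score (r 0.704, rho 0.589). With the endothelium score its r was 0.589 and its rho 0.543. Within the 21 the r with these scores were 0.276, 0.687 and 0.583, in that order. The first did not pass after adjustment of the permutation p (adjusted p = 0.374). No test was made of the differences between these correlations.

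**Figure D5:**
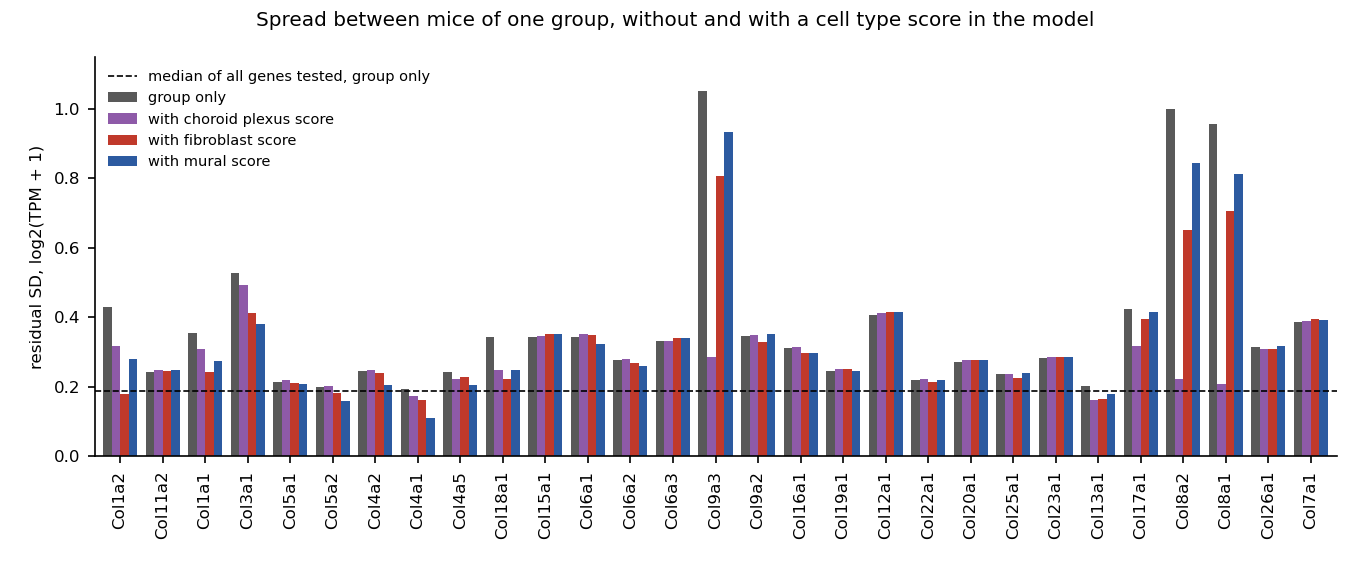
Residual SD of log2(TPM + 1) between mice of one group for the 29 collagen genes tested, from a model of the 4 groups alone and with a choroid plexus, fibroblast or mural marker score added, with the median of all genes tested as a dashed line. The choroid plexus score takes Col9a3, Col8a2 and Col8a1 from 0.96 to 1.05 down to 0.21 to 0.29, the fibroblast score takes Col1a2 from 0.43 to 0.18, and the mural score takes Col4a1 from 0.19 to 0.11.

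The proteins that make, bind and cut collagen were followed through 7 lists with 78 genes in the table, 64 of them tested. No partner was called with genotype by limma, 0 of 64 at each age, where 0.0386% of all genes were called at 2 months and 0.495% at 22 months. At an unadjusted p under 0.05 there were 2 and 7 of 64, beside 6.69% and 10.2% of all genes. With age, 1 of 64 was called in WT mice and 6 of 64 in hAβ-KI mice, beside 5.0% and 9.18% of all genes. The 14 enzymes that hydroxylate prolyl and lysyl residues and the 7 receptors tested gave no call with age in either genotype.

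Timp1, an inhibitor of the metalloproteinases that cut collagen, was higher with age in both genotypes. Its lowest, median and highest levels were 0.00, 0.44 and 0.83 TPM in WT mice at 2 months and 0.88, 1.615 and 2.68 TPM at 22 months, without overlap. In hAβ-KI mice they were 0.00, 0.60 and 1.87 TPM and 0.34, 2.115 and 3.57 TPM, with overlap. The log2 difference was 0.93 in WT (SE 0.22, limma adjusted p = 0.0186) and 0.88 in hAβ-KI mice (SE 0.23, limma adjusted p = 0.0207).

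The other calls were in hAβ-KI mice between 2 and 22 months. Adamts3, a protease that trims procollagen, fell from a median of 2.55 to 1.76 TPM with no overlap, a log2 difference of -0.37 (SE 0.07, limma adjusted p = 0.00351). Ctsk, the collagen-degrading protease cathepsin K, fell by 0.39 on the log2 scale (limma adjusted p = 0.0386), and Sec23a, a coat protein of the vesicles that export procollagen, fell by 0.21 (limma adjusted p = 0.0478). Timp2, another inhibitor of metalloproteinases, rose from a median of 39.3 to 46.3 TPM with overlap, a log2 difference of 0.41 (SE 0.14, limma adjusted p = 0.0768). Lamc1, a laminin chain of basement membranes, rose from a median of 2.14 to 3.17 TPM, a log2 difference of 0.40 (SE 0.13, limma adjusted p = 0.0694). Leaving out single mice in turn, Timp1, Adamts3 and Ctsk were called each time, Sec23a in 13 of 14 fits, and Timp2 and Lamc1 in 8 of 14. With mice whose names share a leading number treated as correlated, all 7 calls were made again, with limma adjusted p of 0.00483 to 0.0898. Without hAβ-KI replicate 2 at 22 months the log2 difference of Timp2 was 0.26 (limma adjusted p = 0.199). In WT mice none of these 5 was called, and the interaction of genotype and age was called for 0 of 64 by limma, beside 0.00643% of all genes. At an unadjusted p under 0.05 the interaction gave 6 of 64, where 6.86% of all genes reached that level. The partner lists share Dcn, Lum, Fmod and Ogn with the fibroblast markers.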

How the data were processed

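Whole hippocampus of 29 mice in 4 groups was analysed, 1 library a mouse, with groups taken from the labels. Per the labels and methods, RNA with RIN of 8 or more was made into Smart-seq2 cDNA and Nextera libraries, sequenced as paired 43-base reads without strand marking, aligned with STAR 2.5.1b to GRCm38 and quantified with RSEM 1.2.22. The authors deposited TPM per gene, which hold no counts, so a test for counts was not used and the depth is unknown. Groups are separate animals. Mouse names share a leading number or code in 10 cases, which cover 22 of the 29 mice, each within 1 group, and what it marks is not given in the sources used here. Tests and permutations treated mice as independent, and a limma fit with such mice correlated was an alternative.

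Genes with at least 1 TPM in at least 2 mice were tested with limma 3.58.1 (R 4.3.3, eBayes with trend) on log2(TPM + 1), in 1 model of the 4 groups, and called at a Benjamini-Hochberg FDR under 0.1 and p under 0.05. A fold change on this scale understates that of low genes. The procedure was tested on simulated data. Sums, ratios and correlations used Python 3.11.15 with scipy 1.17.1, and figures used matplotlib 3.10.9. Permutations numbered 100000, or were exact for the 8 mice low in choroid plexus markers. They stayed within groups for relations over all mice, and moved mice across groups within the sets high and low in choroid plexus markers. Intervals are 95% intervals. Sequences and positions came from RefSeq (GRCm38.p6) and GENCODE M21.

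The members and lists were chosen with earlier results of these data known. The genes named were those called, the 10 highest in mean TPM, the fibrillar and type IV genes, and called partners. Others (Col18a1, Col5a1, Col15a1, Col22a1, Col25a1, Col8a1 and Col6a3) were named after their values were seen. Alternatives were another pseudocount, filters, scalings, covariates and leaving out each mouse.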

Additional observations from a re-analysis of the deposited data

Results flagged for a closer look

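Of 76 sets made of 1 collagen gene, or of the fibrillar to type IV log2 ratio, in 1 group, 7 held a mouse that stood apart from the others by Dixon's criterion at the 95% level, and chance alone flags about 1 in 20 sets. WT replicate 3 at 22 months was the lowest of its group in 3 genes, with 0.89 TPM for Col1a1, 1.13 TPM for Col1a2 and 3.29 TPM for Col6a2, where the next mouse had 2.57, 3.61 and 4.60 TPM. It also had the lowest fibroblast marker sum (80.0 TPM) and the lowest mural marker sum (127 TPM) of all 29 mice, and the part of these in its collagen values was not tested. hAβ-KI replicate 2 at 22 months was lowest in Col1a2 (2.20 TPM) and in Col8a2 (0.21 TPM) and highest in Col16a1 (6.86 TPM), a collagen of the FACIT class. It was the only mouse of its group low in choroid plexus markers, at 131 TPM, and its hippocampal neuron marker sum of 185 TPM was the lowest of all. hAβ-KI replicate 6 at 22 months was highest in Col22a1, with 0.71 TPM beside 0.35 TPM in the next mouse.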

How the results depend on the processing

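In the genotype comparisons and the interaction, no collagen gene was called under any alternative run. The count of 0 collagen genes with age in WT mice became 1 in each of 5 alternatives. These were no filter on low values (Col9a1, beside 649 calls over all genes) and rescaling to nuclear protein-coding genes (Col6a2, beside 712). Others had the choroid plexus score (Col18a1, beside 1021) or the fibroblast score (Col1a2, beside 856) in the model. The last left out the mice low in choroid plexus markers (Col18a1, beside 292) and was chosen after seeing the data. The count of collagen genes ranged from 0 to 2 when single mice were left out, reaching 2 without WT replicate 3 at 22 months (beside 623). With age in hAβ-KI mice it became 1 with no filter (Col5a3, beside 1154) and 1 when rescaled (Col6a2, beside 1564). It became 2 with the fibroblast score (Col1a1 and Col1a2, beside 1710), and stayed at 0 when single mice were left out. The cause was not tested. With mice of a shared name number correlated (estimated correlation 0.047) it stayed at 0 in every comparison, while the calls over all genes went from 777 to 564 with age in WT, from 1428 to 1209 with age in hAβ-KI mice and from 77 to 49 with genotype at 22 months. The difference of Col1a2 with age in WT mice, -0.08, turned to 0.027 without the mice low in choroid plexus markers, and it ran from -0.17 to 0.11 when single mice were left out, highest without WT replicate 3 at 22 months. That of Col25a1 with genotype at 22 months turned to -0.064 without those mice, and it ran from -0.051 (without hAβ-KI replicate 2) to 0.15 when single mice were left out. The fibrillar to type IV log2 ratio moved by less than 1 SD in all 20 alternatives and 58 fits without single mice. No paired analysis was possible because replicate numbers were given in accession order and pair no animals. TPM hold no counts, so counting error could not be separated from the spread between mice.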
